A study of Mus musculus with 18 samples.

Results

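Growth hormone from the pituitary binds its receptor on hepatocytes, the kinase JAK2 bound to the receptor phosphorylates STAT5A and STAT5B, and these enter the nucleus and raise or repress their target genes. Among the targets are genes that damp the signal (Socs2, Socs3 and Cish), the transcriptional repressors Bcl6 and Cux2, and the secreted products Igf1 and Igfals, through which the liver supports body growth. In rodent liver the male and female patterns of growth hormone release act through STAT5 to set many sex differences in gene expression. Here 10 genes of this pathway were followed among the 54532 genes of the deposited tables. They are the receptor Ghr, the transcription factors Stat5a and Stat5b, and the feedback genes Socs2, Socs3 and Cish. The others are the repressors Bcl6 and Cux2 and the outputs Igf1 and Igfals. All 10 were chosen by name for these roles, with earlier results of these data known. Their RNA was measured, not the hormone, the proteins or STAT5 phosphorylation.

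Livers came from wild-type male C57BL/6J mice fed a control diet (Ctrl) or a riboflavin-deficient diet (B2D), all of them fasted overnight before harvest, with 1 RNA-seq library per mouse. Without fenofibrate there were 5 Ctrl and 5 B2D mice, on diet for 1 month. With fenofibrate, a drug that activates PPARα, there were 4 Ctrl+FF and 4 B2D+FF mice, on diet for 9 weeks and given the drug in weeks 7 to 9, with the last dose shortly before harvest. Riboflavin (vitamin B2) is the precursor of the cofactor FAD, and the comparisons ask what its lack did to liver RNA with and without the drug. The values are FPKM, that is, fragments scaled to gene length and library depth, and can therefore be set side by side between genes. Each of the 2 tables was normalized on its own, and fenofibrate, the time on diet and the table changed together, so their parts in a difference between tables cannot be told apart and levels are compared only within a table. Libraries held 15320729 to 21898502 reads assigned to genes. All libraries had the RNA of male livers, with Xist at 0.0320 FPKM or less and Ddx3y at 12.0 to 21.2 FPKM. Hepatocyte markers (9 of 10 in the tables) dominated every library, with a summed level of 33323 to 48142 FPKM without and 19588 to 25235 FPKM with fenofibrate. In whole liver, fewer cells of a type and less RNA per cell cannot be told apart.

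By mean level the Ctrl livers ran in the order Igf1 (55.5 FPKM), Ghr (48.5), Igfals (37.8), Stat5b (7.53), Socs3 (3.18), Bcl6 (2.51), Stat5a (1.51), Socs2 (1.46), Cish (1.17) and Cux2 (0.0417). Neighbours in this order overlapped between mice except at 3 places, which set apart the abundant products and the receptor from Stat5b, Stat5b from Socs3, and Cish from Cux2. In B2D livers Igf1 (53.7 FPKM) and Ghr (28.9 FPKM) no longer overlapped, and Cux2 (1.82 FPKM) moved up to stand between Socs3 and Stat5a, overlapping both. The same separation of Igf1 from Ghr was seen in B2D+FF livers (35.3 and 23.4 FPKM), whereas in Ctrl+FF livers (40.9 and 37.7 FPKM) these genes overlapped.

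**Figure D1:**
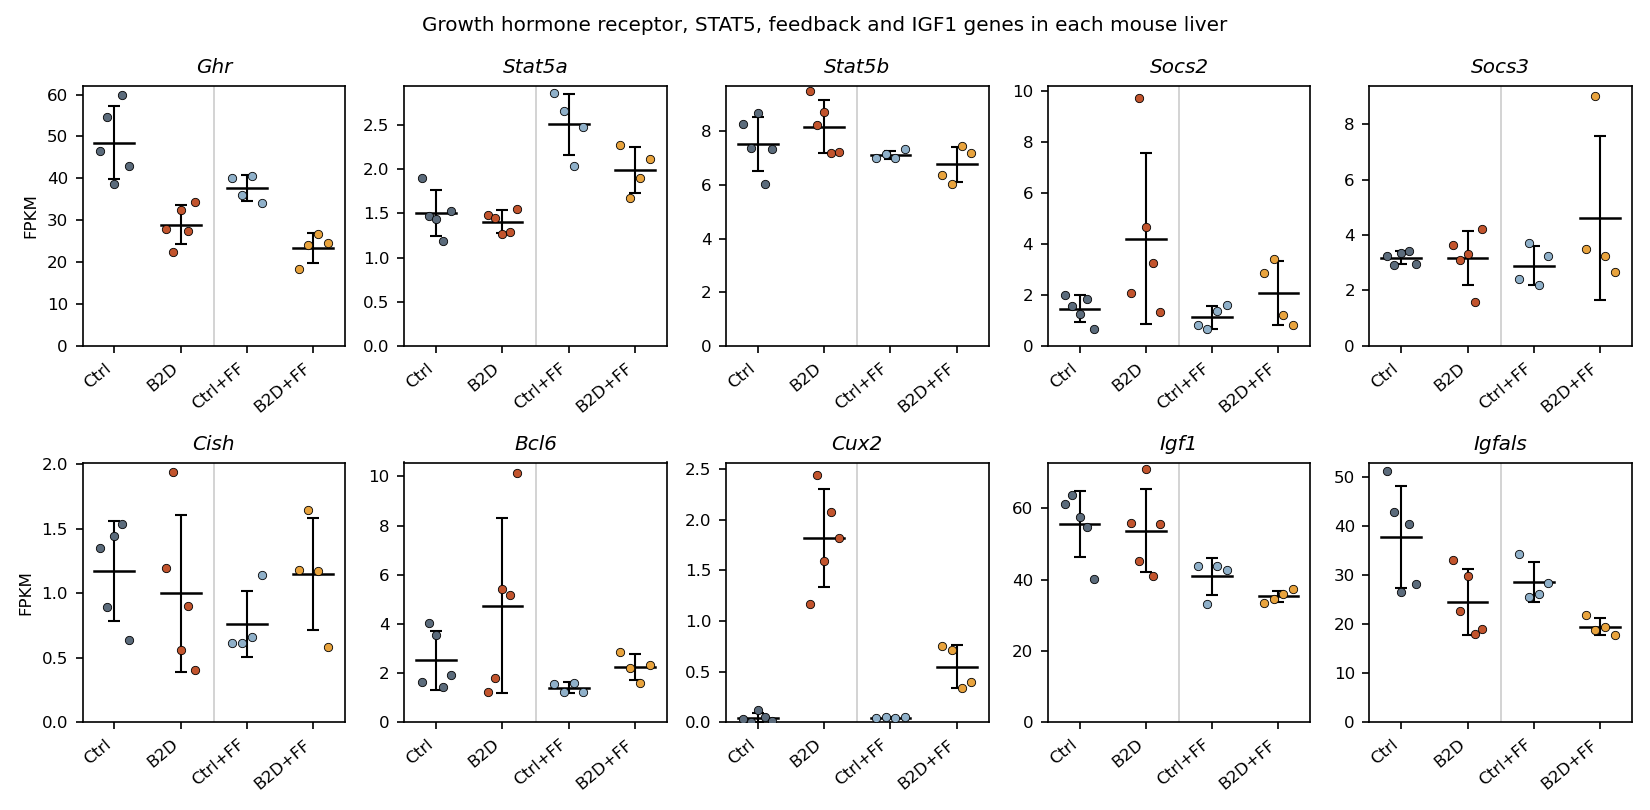
Level in FPKM (y axis, from 0) of the 10 genes in each mouse of the 4 groups, with a horizontal line at the group mean and a bar of 1 SD, and a grey line between the separately normalized tables. Ghr is lower and Cux2 higher in every B2D mouse than in any mouse of its control group in both tables, and Igfals is lower in this way only with fenofibrate.

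Without fenofibrate the diets differed in the receptor and 1 repressor. All 10 genes had a mean of at least 0.5 FPKM over both groups and were tested among 11574 genes with limma on log2(FPKM + 1). P-values were adjusted over all genes tested. Cux2 met this minimum only through its level in B2D livers (0.0417 FPKM in Ctrl and 1.82 FPKM in B2D). Its place among the genes tested thus depended on the group in which it was high. Ghr fell, 1 of 10 genes, where 1.94% of all genes tested fell, and Cux2 rose, 1 of 10, where 0.769% rose. The same genes were the only ones of the 10 whose groups did not overlap (Ghr lower, against 2.89% of all genes, and Cux2 higher, against 2.08%). The median log2 fold change of the 10 genes was -0.047, and that of all genes tested was -0.0013. With fenofibrate 9 of the 10 genes were tested among 11878, Cux2 being under the 0.5 FPKM minimum. Ghr and Igfals fell, 2 of 9, where 2.21% of all genes fell, and none of the 9 rose, where 2.24% did. At an unadjusted p under 0.05 1 of the 9 was higher, Bcl6, and with voom 0, while 3 were lower at an unadjusted p, Ghr, Igfals and Stat5a. Of all 11878 genes, 1339 were higher and 1180 lower at an unadjusted p, and 365 were higher and 377 lower with voom. Here 2 of 10 genes were lower without overlap (6.44% of all genes tested) and 1, Cux2, was higher without overlap (7.82%). The median of the 9 genes was -0.070, and that of all genes was 0.013.

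**Figure D2:**
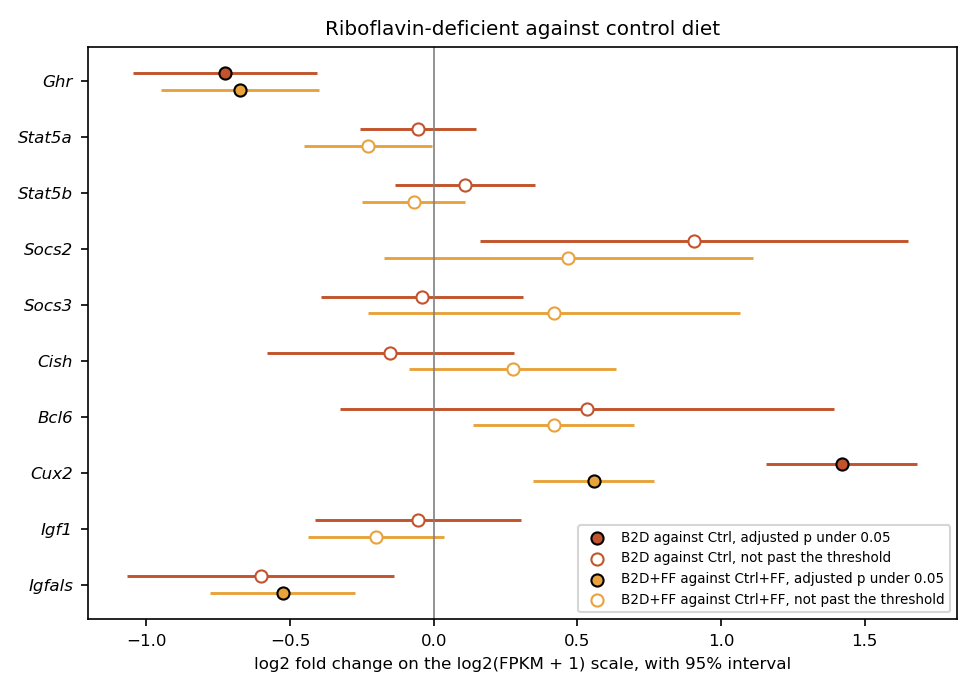
Log2 fold change of B2D against the control diet on the log2(FPKM + 1) scale (x axis) with its 95% interval for each of the 10 genes, without fenofibrate (red) and with it (yellow), where filled points passed an adjusted p of 0.05 in limma. Ghr and Igfals lie to the left of 0 and Cux2 to the right in both comparisons, while the intervals of Stat5b, Socs3, Cish and Igf1 span 0 in both. Cux2 with fenofibrate comes from the fit without a minimum level.

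Ghr encodes the growth hormone receptor, the entry point of the pathway, and lies on the minus strand of chromosome 15 (chr15:3317760-3583492, GRCm38). It stood at 46.6, 54.6, 38.6, 60.0 and 42.9 FPKM in Ctrl mice 1 to 5. In B2D mice 1 to 5 it stood at 27.8, 22.4, 32.5, 27.3 and 34.3 FPKM. The highest B2D mouse was below the lowest Ctrl mouse, and the mean fell from 48.5 ± 8.69 to 28.9 ± 4.69 FPKM (SD, n = 5), 1.68-fold. The log2 fold change was -0.73 (SE 0.15, limma, adjusted p = 0.0265), and the two-sided exact permutation test gave p = 0.00794, the smallest that 5 against 5 mice allow. The limma call was lost when Ctrl 1 (adjusted p = 0.0579), Ctrl 2 (0.0780), Ctrl 4 (0.0746), B2D 2 (0.0513) or B2D 4 (0.0617) was left out, and in a fit of all genes without a minimum level (0.0751). The log2 fold change ranged from -0.80 to -0.64 over the 10 fits that each left out 1 mouse.

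With fenofibrate Ghr was again lower in every B2D mouse. Levels were 39.97, 35.9, 40.6 and 34.2 FPKM in Ctrl+FF mice 1 to 4, and 18.3, 24.0, 26.7 and 24.5 FPKM in B2D+FF mice 1 to 4. The groups did not overlap, and the mean fell from 37.7 ± 3.10 to 23.4 ± 3.59 FPKM (SD, n = 4), 1.61-fold. The log2 fold change was -0.67 (SE 0.12, limma, adjusted p = 0.0182), with an exact permutation p of 0.0286, the smallest possible for 4 against 4. The call was lost without Ctrl+FF 1 (adjusted p = 0.0673), Ctrl+FF 2 (0.0577) or Ctrl+FF 3 (0.0540). The diet effects on Ghr with and without fenofibrate differed by 0.05 on the log2 scale (95% interval -0.37 to 0.47, limma, adjusted p = 0.945). No 100-base stretch of Ghr transcripts was shared with another gene.

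Stat5a and Stat5b, the paired transcription factors that carry the signal to DNA, lie beside each other on chromosome 11 (chr11:100859351-100885169 on the plus strand and chr11:100780731-100850724 on the minus strand, GRCm38). Stat5b was the more abundant in every mouse, with a Stat5b to Stat5a ratio of FPKM of 4.33 to 6.04 in Ctrl, 4.64 to 6.90 in B2D, 2.45 to 3.44 in Ctrl+FF and 2.80 to 3.91 in B2D+FF livers. Stat5b was at 8.26, 7.36, 8.68, 6.02 and 7.34 FPKM in Ctrl and at 9.52, 8.25, 8.71, 7.20 and 7.23 FPKM in B2D mice, and the groups overlapped. Its log2 fold change was 0.11 (95% interval -0.14 to 0.35, limma, adjusted p = 0.639). Stat5a ran from 1.19 to 1.91 FPKM (median 1.48) in Ctrl and from 1.26 to 1.56 FPKM (median 1.45) in B2D mice, with a log2 fold change of -0.05 (95% interval -0.26 to 0.15, limma, adjusted p = 0.794).

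With fenofibrate, Stat5a was at 2.86, 2.66, 2.04 and 2.48 FPKM in Ctrl+FF and at 2.28, 1.67, 1.90 and 2.12 FPKM in B2D+FF mice. Ctrl+FF 3 lay under B2D+FF mice 1 and 4, so the groups overlapped, and the log2 fold change of -0.23 (95% interval -0.45 to -0.0050) did not pass (limma, adjusted p = 0.226). Stat5b held a narrow range in Ctrl+FF mice, 7.01 to 7.33 FPKM, and a wider one in B2D+FF mice, 6.04 to 7.45 FPKM, with a log2 fold change of -0.07 (95% interval -0.25 to 0.11, limma, adjusted p = 0.664). A part of the transcripts is the same in both genes: 3.44% of 100-base stretches of Stat5a and 4.79% of Stat5b occurred in the other, and reads from there could be assigned to either. Stat5a also overlaps the end of Stat3 by 72 bases.

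Socs2 and Cish are direct STAT5 targets whose products act back on the growth hormone receptor, and Socs3 is a related inhibitor that also answers interleukin-6. Socs2 (chr10:95385362-95417180, minus strand) stood at 1.99, 1.56, 1.23, 1.84 and 0.647 FPKM in Ctrl mice. In B2D mice it stood at 2.07, 9.74, 4.67, 3.23 and 1.34 FPKM, so that 4 of 5 were above every Ctrl mouse and B2D 5 was within the Ctrl range. The mean was 2.89-fold higher, but the spread was wide (SD 3.34 FPKM in B2D), and the log2 fold change of 0.90 (SE 0.34) did not pass (limma, adjusted p = 0.188; exact permutation p = 0.0556). With fenofibrate Socs2 was at 0.812, 0.638, 1.38 and 1.60 FPKM in Ctrl+FF and at 2.85, 3.39, 1.197 and 0.814 FPKM in B2D+FF mice. B2D+FF mice 1 and 2 were above all controls and mice 3 and 4 among them, with a log2 fold change of 0.47 (95% interval -0.17 to 1.11, limma, adjusted p = 0.382).

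Cish, which binds the activated receptor, is on chromosome 9 (chr9:107296026-107302784, plus strand). It ran from 0.633 to 1.54 FPKM (median 1.35) in Ctrl and from 0.402 to 1.93 FPKM (median 0.899) in B2D livers, with the B2D range enclosing that of the controls. The log2 fold change was -0.15 (95% interval -0.58 to 0.28, limma, adjusted p = 0.724). With fenofibrate the sign was the other way, at 0.617, 0.615, 0.663 and 1.14 FPKM in Ctrl+FF and 1.18, 1.65, 1.17 and 0.585 FPKM in B2D+FF mice. There 3 B2D+FF mice were above and 1 was below all controls, and the log2 fold change of 0.27 did not pass (95% interval -0.09 to 0.64, limma, adjusted p = 0.364). The diet effects on Cish differed by 0.43 on the log2 scale (limma, adjusted p = 0.552). Of its 100-base stretches, 6.75% also occur on the opposite strand in Gm17040 or Gm17041, which were at 0.0811 FPKM or less on average. B2D 2, the mouse with the most Socs2, also had the most Cish, and in B2D+FF mice the highest of both was mouse 2.

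Socs3 (chr11:117966079-117970047, minus strand) was even among Ctrl mice, at 2.91 to 3.42 FPKM. In B2D mice it stood at 3.63, 3.10, 3.33, 1.57 and 4.22 FPKM, on both sides of the controls, with a log2 fold change of -0.04 (95% interval -0.39 to 0.31, limma, adjusted p = 0.919). With fenofibrate it was at 2.42, 3.72, 2.21 and 3.22 FPKM in Ctrl+FF and 3.49, 9.01, 3.24 and 2.67 FPKM in B2D+FF mice. Only B2D+FF 2 was above all controls, and the log2 fold change of 0.42 did not pass (95% interval -0.23 to 1.07, limma, adjusted p = 0.444). That mouse also had the highest summed level of 6 neutrophil markers, 14.0 FPKM, where the others with fenofibrate were at 2.60 to 7.19 FPKM. Without fenofibrate the neutrophil sum was 0.867 to 2.46 FPKM in Ctrl and 2.03 to 6.53 FPKM in B2D mice, and 2 of the 6 markers were under 0.05 FPKM in every library of each of these groups. Their part in the Socs genes was not tested. Of the other cell type markers, the Kupffer cell gene Clec4f was lower in B2D livers (28.7 ± 2.83 to 20.4 ± 2.47 FPKM, limma, adjusted p = 0.0412). With fenofibrate the endothelial gene Lyve1 (limma, adjusted p = 0.0294), the neutrophil gene Retnlg (0.0280) and the hepatocyte gene Tat (0.0188) were higher in B2D+FF livers. Retnlg averaged 0.301 FPKM in Ctrl+FF and 1.63 FPKM in B2D+FF livers. It met the 0.5 FPKM minimum only through the group in which it was high. The hepatocyte gene Serpina1c was lower (limma, adjusted p = 0.00527). It went against its list, in which 6 of 9 hepatocyte markers were higher by sign and 3 lower (median log2 fold change 0.02). Serpina1c also belongs to a family of near-identical copies. Lyve1 went against its list, in which 7 of 8 endothelial markers were lower by sign and 1 higher (median log2 fold change -0.14). The part of these markers in the pathway's changes was not tested.

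Bcl6, a repressor that occupies many STAT5 sites and is higher in male liver, is on chromosome 16 (chr16:23965052-23988852, minus strand). Without fenofibrate it stood at 1.62, 4.04, 3.54, 1.44 and 1.92 FPKM in Ctrl and at 1.21, 1.80, 5.42, 5.17 and 10.1 FPKM in B2D mice. B2D mice 3 to 5 were above every control, whereas mouse 1 was below them all, and the log2 fold change of 0.53 had a 95% interval of -0.33 to 1.39 (limma, adjusted p = 0.494). With fenofibrate it was at 1.57, 1.22, 1.61 and 1.22 FPKM in Ctrl+FF and at 2.86, 2.19, 1.59 and 2.32 FPKM in B2D+FF mice. Here 3 of 4 B2D+FF mice were above the controls, and the log2 fold change of 0.42 (SE 0.12) did not pass (limma, adjusted p = 0.0914; exact permutation p = 0.0571), but did when B2D+FF 3 was left out (adjusted p = 0.0335).

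Cux2, a homeobox repressor found mainly in female liver, showed the largest rise of the 10 genes in the comparison without fenofibrate. It lies on chromosome 5 (chr5:121856366-122050102, minus strand). In Ctrl mice it was at 0.0279, 0.00571, 0.116, 0.04997 and 0.00949 FPKM, which came from 5, 1, 23, 10 and 2 reads. In B2D mice it was at 1.17, 2.44, 1.59, 2.07 and 1.82 FPKM, from 217, 420, 282, 405 and 349 reads. Each B2D liver was thus far above each Ctrl liver, and the mean rose 43.6-fold, from 0.0417 ± 0.0449 to 1.82 ± 0.480 FPKM (SD, n = 5). Ctrl 3 held 23 of the 41 Ctrl reads, and without it the mean was 78.2-fold higher. The log2 fold change of 1.42 (SE 0.12, limma, adjusted p = 0.000524) understates this, since 1 was added to low values, and it was 5.93 with voom on the reads. It passed in all 10 fits that left out 1 mouse (adjusted p from 0.000236 to 0.00261), and the exact permutation p was 0.00794, the smallest possible.

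With fenofibrate Cux2 rose too. It was at 0.0423, 0.0482, 0.0399 and 0.0527 FPKM in Ctrl+FF mice, from 7 to 9 reads each. In B2D+FF mice it was at 0.751, 0.712, 0.336 and 0.397 FPKM, from 129, 146, 70 and 82 reads. The groups did not overlap and the mean was 12.0-fold higher (exact permutation p = 0.0286, the smallest possible). In a fit without a minimum level the log2 fold change was 0.56 (SE 0.09, limma, adjusted p = 0.0417), and that call held in 1 of 8 fits leaving out a mouse, the one without B2D+FF 3 (adjusted p from 0.0401 to 0.141 over all 8). The rise with fenofibrate was smaller by 0.86 on the log2(FPKM + 1) scale (SE 0.16, limma without a minimum level, adjusted p = 0.0415). That difference did not pass with a pseudocount of 0.1 (adjusted p = 0.147) or with voom (0.318), and it passed in only 3 of 18 fits leaving out a mouse, those without B2D 1 (0.00962), B2D+FF 1 (0.0380) or B2D+FF 2 (0.0426), against up to 0.104 in the others. For the 9 other genes, none of the differences passed (limma; 0.0635% of all 11031 genes tested were lower and 0.0816% higher), and none had an unadjusted p under 0.05 or passed with voom.

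**Figure D3:**
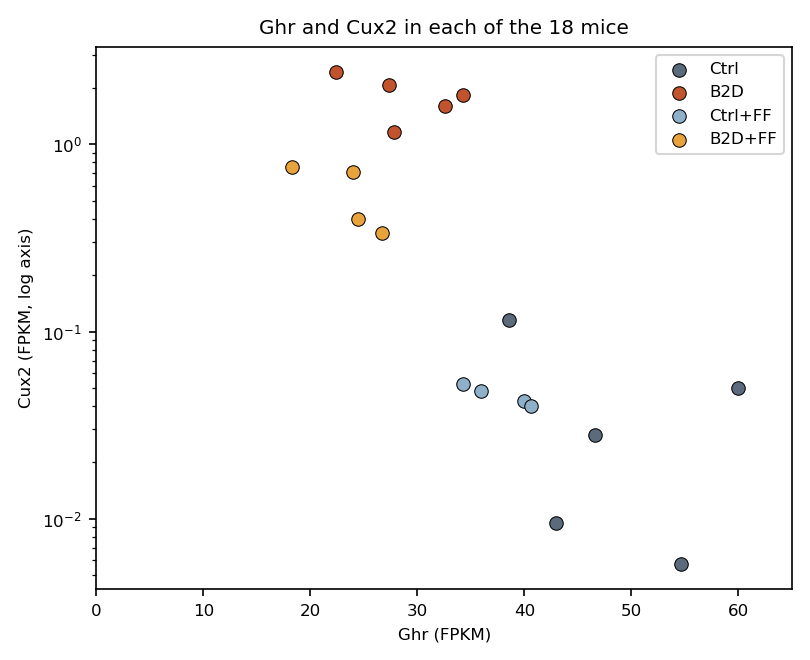
Ghr (x axis, FPKM) against Cux2 (y axis, FPKM on a log axis) in each of the 18 mice, coloured by group. Mice on the deficient diet form the upper left, with Ghr at 18.3 to 34.3 and Cux2 at 0.336 to 2.44 FPKM, and no control mouse has Cux2 above 0.116 FPKM. Levels of the separately normalized tables share the axes only for display.

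Igf1 and Igfals are secreted outputs: IGF1 drives growth, and the acid-labile subunit encoded by Igfals holds IGF1 and IGFBP3 in a long-lived complex. Igf1 (chr10:87858265-87937042, plus strand) was at 61.1, 63.9, 57.6, 54.8 and 40.2 FPKM in Ctrl and at 55.9, 45.1, 71.0, 41.0 and 55.7 FPKM in B2D mice. The groups overlapped throughout, although Ghr in the same livers did not, and the log2 fold change was -0.05 (95% interval -0.41 to 0.30, limma, adjusted p = 0.890). The interval leaves room for a fall of up to 0.41 on the log2 scale. With fenofibrate Igf1 stood at 43.7, 33.3, 43.9 and 42.8 FPKM in Ctrl+FF and at 33.5, 34.6, 35.9 and 37.2 FPKM in B2D+FF mice. There 3 of 4 controls were above every B2D+FF mouse and Ctrl+FF 2 was below them all, and the log2 fold change of -0.20 did not pass (95% interval -0.44 to 0.04, limma, adjusted p = 0.314). The antisense gene Igf1os overlaps Igf1 by 5117 bases and was at 0.439 and 0.396 FPKM on average in the tables.

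Igfals (chr17:24878770-24882008, plus strand) was lower in both comparisons but passed in 1. It was at 51.3, 42.8, 26.6, 40.4 and 28.1 FPKM in Ctrl and at 33.04, 22.6, 29.9, 17.9 and 19.0 FPKM in B2D mice. B2D mice 2, 4 and 5 were below every control, and the log2 fold change of -0.60 (SE 0.21) did not pass (limma, adjusted p = 0.165; exact permutation p = 0.0556). With fenofibrate it fell from 34.4, 25.5, 26.2 and 28.4 FPKM in Ctrl+FF to 21.9, 18.9, 19.4 and 17.8 FPKM in B2D+FF mice, with no overlap. The mean fell 1.47-fold and the log2 fold change was -0.52 (SE 0.11, limma, adjusted p = 0.0333; exact permutation p = 0.0286, the smallest possible). The call held in 1 of 8 fits leaving out a mouse, the one without B2D+FF 1 (adjusted p = 0.0421), and was lost without each of the others (up to 0.0866, without B2D+FF 4), in the fit without a minimum level (0.0660) and in a fit of all 4 groups (0.178). Diet effects on Igfals in both tables differed by 0.08 on the log2 scale (95% interval -0.50 to 0.65, limma, adjusted p = 0.937).

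The DNA letters that STAT5 reads are TTCNNNGAA, which is the same on both strands. RefSeq start sites (GRCm38.p6) gave 16 windows, from 250 bases before to 50 bases after a start, for 9 of the 10 genes, all but Socs2. The motif was in 6 windows of 4 genes (Cish, Bcl6, Igfals and Socs3), and 8.30% of all 32851 mouse windows of this length hold it. At least 2 copies are in 0.457% of all windows and at least 3 in 0.0335%. The Cish window has 2 copies, and one of the Bcl6 windows has 3. The windows of Ghr, Stat5a, Stat5b, Cux2 and Igf1 have no copy, which says only that these letters are not in these windows. The 200 bases before a start are shown for Bcl6 and Igfals, as examples with the motif, and for Ghr, as an example without it, with each copy in capitals. For Cish only the stretch with both copies is shown, which begins at the start base. By the GENCODE M21 annotation the Cish stretch is exonic, the second Bcl6 stretch and the Ghr stretch are intronic, and the first Bcl6 stretch is upstream of the gene. GENCODE M21 starts Igfals further upstream than the deposited table does, and by it 16 bases of the Igfals stretch are exonic.
Cish (chr9:107296659-107296678, plus strand): TTCCTGGAAagTTCTTGGAA
Bcl6, first start (chr16:23988853-23989052, minus strand): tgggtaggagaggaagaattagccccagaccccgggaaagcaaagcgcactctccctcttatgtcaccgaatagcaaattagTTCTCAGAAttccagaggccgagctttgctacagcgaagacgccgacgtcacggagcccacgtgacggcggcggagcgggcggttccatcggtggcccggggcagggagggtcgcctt
Bcl6, second start (chr16:23981284-23981483, minus strand): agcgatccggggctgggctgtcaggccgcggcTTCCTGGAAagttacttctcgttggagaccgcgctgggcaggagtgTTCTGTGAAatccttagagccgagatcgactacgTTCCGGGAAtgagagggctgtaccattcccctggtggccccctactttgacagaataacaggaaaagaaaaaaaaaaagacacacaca
Igfals, second start (chr17:24878031-24878230, plus strand): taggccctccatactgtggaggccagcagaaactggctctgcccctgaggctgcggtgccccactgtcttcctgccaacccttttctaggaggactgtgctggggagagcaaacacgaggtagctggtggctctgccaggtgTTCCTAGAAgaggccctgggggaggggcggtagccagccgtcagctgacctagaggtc
Ghr, second start (chr15:3581843-3582042, minus strand): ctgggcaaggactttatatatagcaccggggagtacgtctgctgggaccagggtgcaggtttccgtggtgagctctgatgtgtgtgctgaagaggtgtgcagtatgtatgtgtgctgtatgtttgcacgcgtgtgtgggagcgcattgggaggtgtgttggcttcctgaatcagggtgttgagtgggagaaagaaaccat

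Among the other genes of the pathway, a few receptors and partners passed the limma threshold. Of all genes tested, 1.94% fell and 0.769% rose without fenofibrate, and 2.21% fell and 2.24% rose with it. Among 13 tested JAK-STAT components, 2 rose and none fell without fenofibrate: Prlr, the receptor of prolactin, which also signals through STAT5 (2.85 ± 0.492 to 6.57 ± 1.44 FPKM, log2 fold change 0.96, limma, adjusted p = 0.00557), and Lepr, the leptin receptor, which signals through STAT3 (10.7 ± 3.89 to 44.3 ± 24.7 FPKM, 1.89, adjusted p = 0.0112). Both passed in all 10 fits leaving out a mouse, but Lepr did not in the fit without a minimum level (adjusted p = 0.0555). With fenofibrate 1 of the 13 rose, Lepr (6.77 ± 1.65 to 19.0 ± 6.14 FPKM, log2 fold change 1.33, limma, adjusted p = 0.0204), and its call was lost without Ctrl+FF 1 or 2 or B2D+FF 1 or 4 (adjusted p of 0.0662, 0.0660, 0.0524 and 0.0575) and in the fit without a minimum level (0.0621). Prlr was then at 2.90 ± 0.528 and 3.24 ± 0.345 FPKM (log2 fold change 0.13, limma, adjusted p = 0.547), and its diet effects in the tables differed by -0.84 on the log2 scale without passing (SE 0.19, adjusted p = 0.0859). Jak2, the kinase of the receptor, named here for that role, was at 2.95 ± 0.513 and 3.04 ± 0.272 FPKM without fenofibrate (log2 fold change 0.04, limma, adjusted p = 0.868) and at 2.40 ± 0.290 and 2.10 ± 0.414 FPKM with it (-0.14, adjusted p = 0.511).

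Of 16 tested negative regulators, none passed without fenofibrate by limma (0 also at an unadjusted p and with voom), and with it 1 rose, Ptpn2, a phosphatase that acts on JAK and STAT proteins (2.52 ± 0.320 to 3.56 ± 0.195 FPKM, log2 fold change 0.38, adjusted p = 0.0382). Its call held in 1 of 8 fits leaving out a mouse, with adjusted p from 0.0326 to 0.116. Over all genes tested 2.24% rose with fenofibrate. None of 14 adaptors and kinases of the parallel branches passed limma in either comparison (2 at an unadjusted p in each, 0 with voom). At an unadjusted p under 0.05, 2124 of all 11574 genes passed without fenofibrate and 2519 of 11878 with it. With voom 139 of all genes were higher without fenofibrate and 365 with it. None of the IGF ligands, receptors and binding proteins passed limma, 9 of them tested without and 8 with fenofibrate (3 and 2 at an unadjusted p). With voom 1 of them was higher in each comparison, Igfbp1, a binding protein that rises in fasting, which is named after its values were seen. It was at 97.3 ± 54.8 FPKM in Ctrl and 226 ± 78.5 FPKM in B2D livers (log2 fold change 1.31, limma, adjusted p = 0.0779), and at 99.9 ± 43.5 FPKM in Ctrl+FF and 334 ± 154 FPKM in B2D+FF livers (1.70, adjusted p = 0.0576). Its groups overlapped in both comparisons. Igfbp3, the partner of IGF1 and the acid-labile subunit, named for that role, was at 6.48 ± 1.62 and 4.84 ± 1.17 FPKM without fenofibrate (log2 fold change -0.35, limma, adjusted p = 0.324) and at 3.64 ± 0.613 and 3.999 ± 1.45 FPKM with it (0.08, adjusted p = 0.855). Medians of these lists lay between -0.14 and 0.07 on the log2 scale.

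A list of liver transcription factors that act with STAT5 held 18 tested genes. Of these, 1 rose and none fell without fenofibrate, and 2 rose and 2 fell with it. The list includes co-regulators such as Trim24, and action with STAT5 was not tested. Over all genes tested 0.769% rose and 1.94% fell without fenofibrate, and 2.24% rose and 2.21% fell with it. Trim24, a co-regulator of nuclear receptors, went from 3.13 ± 0.664 to 6.96 ± 2.27 FPKM without fenofibrate (log2 fold change 0.91, limma, adjusted p = 0.0327) and from 4.11 ± 0.739 to 8.21 ± 1.70 FPKM with it (0.84, adjusted p = 0.0152). Without fenofibrate its call held in 3 of 10 fits leaving out a mouse (adjusted p up to 0.0937, without Ctrl 2) and was lost without a minimum level (0.110), and it held in 6 of 8 with fenofibrate (lost without Ctrl+FF 1, 0.0567, or Ctrl+FF 2, 0.0547). Tox, a chromatin-binding factor, rose with fenofibrate from 1.52 ± 0.203 to 2.70 ± 0.315 FPKM (log2 fold change 0.55, limma, adjusted p = 0.0135, and 0.0502 without Ctrl+FF 1). Onecut1, also called HNF6, fell with fenofibrate from 3.31 ± 0.535 to 1.35 ± 0.597 FPKM (log2 fold change -0.90, limma, adjusted p = 0.0203). Cebpa, a factor that maintains hepatocyte genes, fell from 95.7 ± 5.60 to 64.3 ± 8.67 FPKM (-0.57, limma, adjusted p = 0.0205). Each of these falls was called in 4 of 8 fits leaving out a mouse, with adjusted p up to 0.0673 without Ctrl+FF 1 for Onecut1 and up to 0.0770 without Ctrl+FF 2 for Cebpa. Both calls were lost in a fit of all 4 groups (adjusted p = 0.0746 for Onecut1 and 0.198 for Cebpa), and that of Onecut1 also without a minimum level (0.0621).

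Genes with a sex bias in liver, many of them under the control of growth hormone and STAT5, moved with the diet in these male mice, and their lists were written with that result known. Of 22 tested male-biased genes 17 fell and none rose without fenofibrate (median log2 fold change -1.69), where 1.94% of all genes tested fell. With fenofibrate 12 of 21 fell and none rose (median -1.16), where 2.21% of all genes tested fell. Examples are Selenbp2, a selenium-binding protein (7.59 ± 3.18 to 0.699 ± 0.112 FPKM, limma, adjusted p = 0.000524), Mup20, a urinary protein that carries male scent (5231 ± 1537 to 622 ± 304 FPKM, adjusted p = 0.000524), and Serpina1e, a protease inhibitor (1279 ± 275 to 119 ± 98.8 FPKM, adjusted p = 0.00649). With fenofibrate Mup20 fell from 1336 ± 686 to 62.8 ± 37.5 FPKM (limma, adjusted p = 0.00252) and Mup7 from 2866 ± 1789 to 29.4 ± 18.04 FPKM (adjusted p = 0.000918). The Mup and Serpina1 families hold near-identical copies, so the share of each copy is uncertain. Both families are among the falls in each comparison. By sign, 21 male-biased genes were lower and 1 higher without fenofibrate, and 18 were lower and 3 higher with it. Without Ctrl 2 or Ctrl 4 the 17 falls became 7 and 8, and in the fit without a minimum level they became 5. With fenofibrate the 12 falls became 8 to 11 over the fits that left out 1 mouse.

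Of 18 tested female-biased genes 7 rose and none fell without fenofibrate (median log2 fold change 0.80), and 7 of 17 rose and none fell with it (median 0.66). Over all genes tested 0.769% rose without fenofibrate and 2.24% with it. The list held 28 genes, and those under the minimum level were not tested. A gene low in control livers could be tested only through a high level on the deficient diet. The counts and medians of this list thus depend partly on the minimum. Cyp2b9, among the 7 rises without fenofibrate, met it only through B2D livers (0.355 FPKM in Ctrl and 55.4 FPKM in B2D). Slco1a4, an organic anion transporter, went from 14.5 ± 4.80 to 52.4 ± 18.9 FPKM without fenofibrate (log2 fold change 1.78, limma, adjusted p = 0.00557). With fenofibrate Slco1a4 rose from 1.46 ± 0.377 to 12.9 ± 2.70 FPKM (log2 fold change 2.49, limma, adjusted p = 0.000356), and Cyp2b10, a drug-metabolizing cytochrome P450, from 1.60 ± 1.11 to 43.7 ± 5.98 FPKM (4.19, adjusted p = 0.000356). The 7 rises without fenofibrate became 4 when Ctrl 1, Ctrl 2, Ctrl 4 or B2D 2 was left out, 3 in the fit without a minimum level and 15 at an unadjusted p. At an unadjusted p 954 of all 11574 genes rose.

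**Figure D4:**
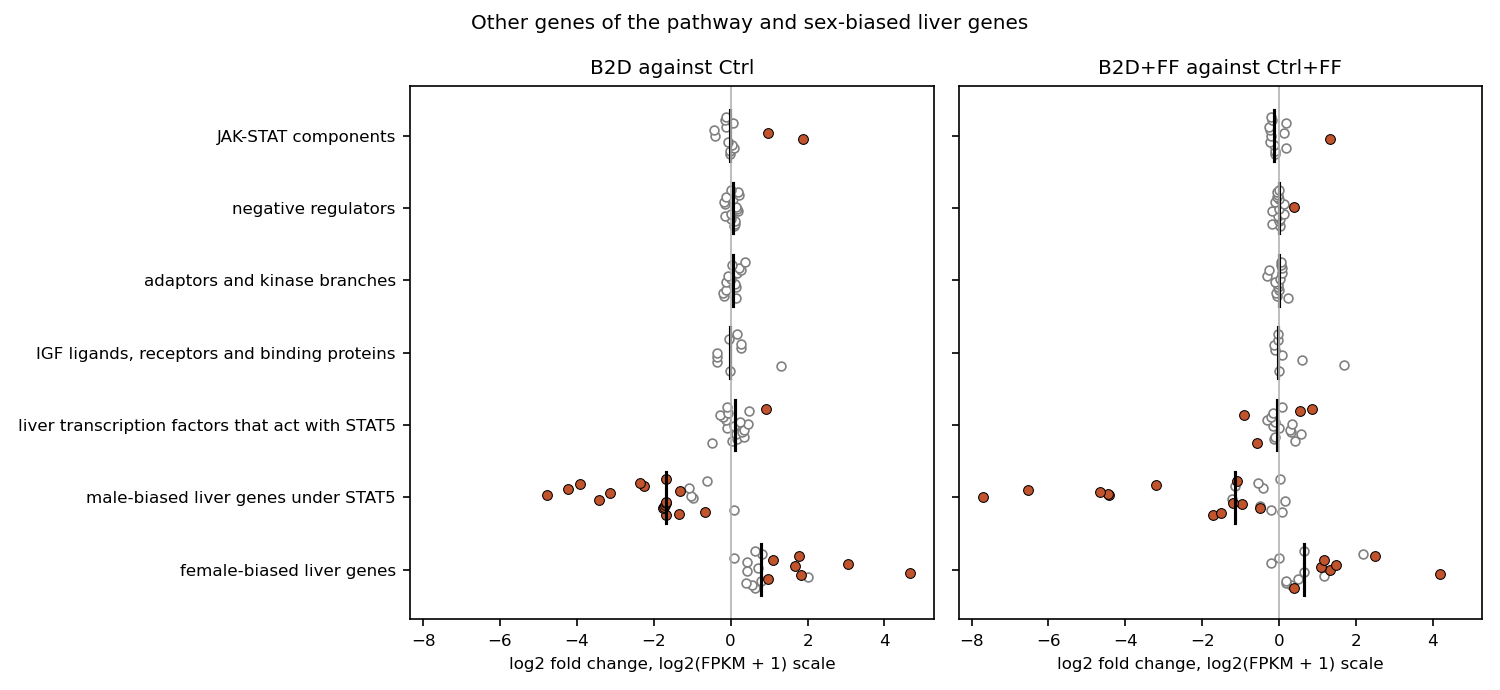
Log2 fold change on the log2(FPKM + 1) scale (x axis) of each tested gene of 7 lists (rows), without fenofibrate on the left and with it on the right, where filled points passed an adjusted p of 0.05 in limma and black bars mark list medians. Medians of the first 5 lists lie between -0.14 and 0.12. Male-biased genes lie mostly to the left (17 of 22 and 12 of 21 fell, against 1.94% and 2.21% of all genes tested). Female-biased genes lie mostly to the right (7 of 18 and 7 of 17 rose, against 0.769% and 2.24%). Both sex-biased lists were written with these directions known, so the shares do not test them. The male-biased list holds near-identical Mup copies. Female-biased genes low in control livers could be tested only through a high level on the deficient diet.

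Variation between mice of the same group was compared after each group's mean was taken off, over the 18 libraries, which share their depth and quality with every gene measured in them. The gene most like Ghr among 4420 others of at least 5 FPKM was Hsd3b2, a steroid dehydrogenase (Pearson r = 0.914), followed by Proz (0.880). Those most like Igf1 were Pck1, a gluconeogenic enzyme (0.792), and Cyp7b1, a hydroxylase of bile acid and steroid metabolism (0.758). The most like Cux2 were the RNA-binding protein genes Srsf7 (0.858) and Hnrnpdl (0.834), and those most like Socs3 were C2cd2l (0.806) and Junb (0.777), an immediate early gene. Cish went with Gpr108 (0.896) and Atxn7l3 (0.885), Bcl6 with Zfp970 (0.853) and Actr6 (0.832), and Stat5b with Ggt6 (0.826) and Skiv2l (0.812). Igfals went with Kars (0.808) and Trmt112 (0.790), Stat5a with Crip2 (0.797) and Tmem109 (0.738), and Socs2 with 2310011J03Rik (0.764) and Hist1h1c (0.759). These are the highest of 4420 or 4421 values for each gene over 18 libraries and describe these mice only. Cux2 was at 0.116 FPKM or less in every control mouse, so its correlations rest mostly on the mice on the deficient diet.

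Among the 10 genes themselves the feedback genes Socs2 and Cish varied together most (r = 0.728), then Socs2 and Cux2 (0.636), Igf1 and Igfals (0.587) and Ghr and Igf1 (0.469). Cish and Bcl6 varied in opposite directions (-0.595), as did Ghr and Cux2 (-0.487). Stat5a and Stat5b were related weakly (0.350). Pairs with Cux2 again rest mostly on the mice on the deficient diet.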

How the data were processed

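The authors sequenced liver mRNA, aligned the reads with STAR to mm10, summed them over genes with featureCounts, and deposited 1 table of FPKM values per experiment (the methods call them RPKM), each normalized on its own. Values are multiples of 1 read in every library (tolerance 0.1 of a read, values up to 1000 reads), so reads were recovered, but the FPKM as deposited gave the main results. Genes with a mean of at least 0.5 FPKM entered limma 3.58.1 (R 4.3.3) as log2(FPKM + 1) (moderated with a trend, two-sided, Benjamini-Hochberg, threshold 0.05), each table alone, and the difference of diet effects was a contrast in all 18 libraries. Such fold changes understate those of low genes. Members were also tested by exact permutation, two-sided. A check on simulated data placed changes only in genes of at least 5 FPKM, so it does not cover low genes such as Cux2.

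All 10 members are named, up to 4 genes past the threshold per pathway list and comparison, and the 2 genes most like each member; Jak2 and Igfbp3 were added for their roles, and Igfbp1 after its values were seen. The values of 1 listed gene are not reported here. The members and lists were chosen with earlier results of these data known. Mice are numbered by accession order within a group, which pairs no mice, and p-values weigh a difference between groups against the spread between mice. Kit and counting were not stated to use strand, so antisense overlaps cannot be separated. Alternatives were a pseudocount of 0.1, no minimum or one of 5 FPKM, upper-quartile and quantile scaling, array weights, voom on recovered reads, unadjusted p-values, all 4 groups in 1 fit and each library left out. Motifs were sought with Python 3.11.15 in promoter windows from RefSeq (GRCm38.p6) and exons come from GENCODE M21, whereas gene positions are those of the deposited tables.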

Additional observations from a re-analysis of the deposited data

Results flagged for a closer look

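Among the 40 groups of mice formed by 10 genes and 4 groups, 3 held a mouse whose gap to its nearest neighbour was large for the range of its group by Dixon's criterion, where chance gives about 1 in 20. Socs3 was at 9.01 FPKM in B2D+FF 2, a gap of 0.870 of the range, and that mouse also had the highest neutrophil marker sum. Its part in the Socs3 level was not tested. Cish was at 1.14 FPKM in Ctrl+FF 4, a gap of 0.908 of the range, against 0.615 to 0.663 FPKM in the other controls with fenofibrate. Igf1 was at 33.3 FPKM in Ctrl+FF 2, a gap of 0.894 of the range, against 42.8 to 43.9 FPKM in the other 3.

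The rise of Cux2 on the deficient diet was smaller with fenofibrate than without it by an interaction contrast in all 18 libraries, with a difference of -0.86 on the log2(FPKM + 1) scale (limma without a minimum level, adjusted p = 0.0415). It did not pass with a pseudocount of 0.1 (adjusted p = 0.147), with voom (0.318) or in 15 of 18 fits leaving out a mouse. The drug, the time on diet and the table changed together in this contrast and cannot be told apart.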

How the results depend on the processing

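The rise of Cux2 without fenofibrate passed under every alternative that could test it, and the falls of Ghr kept their direction under all of them. Without a minimum level (more genes tested) 67 genes passed without fenofibrate in place of 313 and no member was lower (0), and with it 272 passed in place of 529, with 1 member lower and 1 higher. With a minimum of 5 FPKM Cux2 is not tested, so no member was higher (0) without fenofibrate, and 6 genes passed the difference in place of 16. With no minimum 1 member, Cux2, was lower in the difference. At an unadjusted p 2124, 2519 and 1313 genes passed without fenofibrate, with it and for the difference, with 2 members lower and 2 higher without fenofibrate and 1 higher with it. All 4 groups in 1 fit gave 777 genes without fenofibrate, and 1 member lower with it. Array weights gave 885 genes with fenofibrate and 112 for the difference. Upper-quartile scaling moved the calls with fenofibrate from 263 lower and 266 higher to 366 and 223. Leaving out 1 mouse gave 98 to 333 genes, 0 to 1 members lower and 1 to 1 higher without fenofibrate, 178 to 593 genes, 0 to 2 lower and 0 to 1 higher with it, and 8 to 44 genes and no member (0 to 0) for the difference. Apart from the alternatives' own constructions the cause was not tested.

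Signs turned only for values far from the threshold. Without fenofibrate these were Igf1 under quantile scaling (0.063) and, leaving out 1 mouse, Stat5a (-0.10 to 0.00071), Igf1 (-0.16 to 0.035) and Socs3 (-0.13 to 0.12). For the difference they were Ghr under upper-quartile scaling (-0.027) and leaving out a mouse (-0.033 to 0.16), Igfals under quantile scaling (-0.0090) and leaving out a mouse (-0.041 to 0.19), Igf1 under array weights (0.046), and Bcl6 leaving out a mouse (-0.40 to 0.18). Genes of few reads, such as Cux2 in control livers, are limited by depth.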
